A study of Mus musculus with 12 samples.

Results

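The 10 genes described here are the MAP kinase phosphatases Dusp1, Dusp4, Dusp5, Dusp6 and Dusp10, the Sprouty genes Spry1, Spry2 and Spry4, and the Spred genes Spred1 and Spred2. They were taken by gene symbol from a table of 19037 genes (in this order, gene IDs 19252, 319520, 240672, 67603, 63953, 24063, 24064, 24066, 114715 and 114716), and all 10 were found there and passed the filter on low counts, which left 13346 genes for testing. The cells were AML12, a mouse hepatocyte line, and 4 groups of 3 libraries were sequenced from total RNA. The control group had neither treatment. The second group received FK228 (romidepsin; HDI in the sample titles), an inhibitor of class I histone deacetylases (HDACs), the enzymes that remove acetyl groups from histones and other proteins. The third group overexpressed YF mutants of class I HDACs, and the fourth (FK228+YF) had both. The sample codes of the control and FK228 libraries carry the letters GFP and those of the other 2 groups the letters YF, with no further explanation in the labels. The sources used here do not give the dose, the time of exposure, the vector or which HDACs were mutated. AML12 was derived from hepatocytes of a mouse that carries a transgene for human transforming growth factor alpha, a ligand of the EGF receptor. Whether replicate libraries stem from separate cultures is not stated in the labels, and the p-values below therefore measure spread between libraries that may be technical.

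MAP kinases (ERK, JNK and p38) carry signals from growth factor receptors and from stress to the nucleus, and they are switched on by phosphorylation of a threonine and a tyrosine in their activation loop. The dual-specificity phosphatases of the MAP kinase phosphatase family remove both phosphates. Sprouty and Spred proteins act higher up, on the path from receptor tyrosine kinases through RAS. Several of these genes are themselves transcribed in response to ERK or stress signalling, so that they form negative feedback loops, and in liver cells such loops limit the response to EGF, FGF and HGF.

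The promoters of Dusp1 and Dusp5 are shown first, because these genes had the 2 largest rises in the group with both treatments. Dusp1 lies on chromosome 17 at 26505591 to 26508472, minus strand, and Dusp5 on chromosome 19 at 53529145 to 53541809, plus strand (GRCm38.p6). The sequences are the 250 bases before each RefSeq start (GRCm38.p6), read 5′ to 3′ on the strand of the gene. Capitals mark matches to the cAMP response element TGACGTCA or its 5-base core TGACG on either strand, and to the CArG box, the binding sequence of serum response factor.
Dusp1, chr17:26508473-26508722, minus strand: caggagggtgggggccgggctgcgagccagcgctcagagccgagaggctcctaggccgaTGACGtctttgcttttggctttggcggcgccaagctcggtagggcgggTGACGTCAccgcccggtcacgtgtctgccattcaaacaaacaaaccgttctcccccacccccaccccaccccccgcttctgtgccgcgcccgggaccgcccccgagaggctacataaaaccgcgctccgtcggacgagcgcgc
Dusp5, chr19:53528895-53529144, plus strand: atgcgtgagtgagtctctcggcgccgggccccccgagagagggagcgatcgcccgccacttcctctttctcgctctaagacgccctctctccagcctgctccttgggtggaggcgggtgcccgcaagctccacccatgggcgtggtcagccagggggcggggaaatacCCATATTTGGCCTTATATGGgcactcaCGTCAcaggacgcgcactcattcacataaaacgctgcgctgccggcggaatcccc
The Dusp1 window held 1 full cAMP response element, at -143 to -136 relative to the start, and a separate TGACG at -191 to -187. The Dusp5 window held 2 CArG boxes side by side, CCATATTTGG at -82 to -73 and CCTTATATGG at -72 to -63, and CGTCA, the core read on the other strand, at -55 to -51.

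RefSeq windows were matched for 8 of the 10 genes, all but Dusp4 and Spry4. The full cAMP response element was found in 1 of these 8 and in 1.55% of all 32851 mouse windows of the same length, and the CArG box likewise in 1 of 8 and in 1.47%. The core TGACG, which every full element also contains, was present in 3 of 8 windows (Dusp1, Dusp5 and Spred2) and in 17.8% of all windows. The ETS motif CGGAAG, the core bound by the ERK-regulated ETS factors, was present in Dusp6, Spred1 and Spred2, against 13.6% of all windows. The GC box GGGCGG was present in 6 of 8, against 32.7%. The AP-1 motif TGANTCA (6.75% of all windows) and the TATA motif TATAAA (12.4%) had no match in the 8 windows. Each motif was searched on both strands, and a match is a description of the letters only.

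The libraries held between 23664436 and 26122987 counts. Replicates of 1 group differed by more than sampling noise in every pair, so each library was counted once. Hdac1 stood at 97.7 ± 5.13 CPM (counts scaled to the library size; mean ± SD, n = 3) in control cells, 110 ± 3.30 with FK228, 402 ± 18.8 with YF and 797 ± 2.15 with both, and Hdac8 at 17.9 ± 0.567, 16.5 ± 1.26, 42.1 ± 2.02 and 38.7 ± 0.781 CPM. In the same order Hdac2 was at 176 ± 7.60, 149 ± 4.98, 189 ± 4.75 and 177 ± 10.4 CPM and Hdac3 at 105 ± 2.65, 113 ± 2.34, 113 ± 3.07 and 144 ± 3.39. The table does not separate mutant from endogenous transcript. Of 10 hepatocyte markers, all were in the table, but Alb, which encodes albumin, had 1 count in each control library and at most 9 in any other. The summed deposited level of the 10, in TPM (transcript levels scaled for length and library size), ranged from 2550 to 2650 in control, 2270 to 2440 with FK228, 2430 to 2480 with YF and 1510 to 1900 with both. Most of that sum was the keratins Krt18 and Krt8. Krt18 was at 1220 ± 28.2, 1390 ± 74.1, 1130 ± 8.08 and 974 ± 138 TPM in control, FK228, YF and both. In the same order Krt8 was at 1010 ± 15.5, 735 ± 28.2, 884 ± 6.74 and 460 ± 69 TPM. Trf, another of the 10 markers, was at 278 ± 26.4, 181 ± 22.7, 356 ± 27.8 and 194 ± 11.6 TPM. Hnf4a, the hepatocyte transcription factor, was at 49.5 ± 3.31, 13.3 ± 1.92, 35.8 ± 2.70 and 7.75 ± 0.212 TPM in control, FK228, YF and both, and Ttr (transthyretin) at 16.2 ± 5.65, 1.47 ± 0.528, 6.52 ± 2.22 and 0.677 ± 0.393. Summed cholangiocyte markers (3 of 4 in the table) were 638 to 818 TPM in control, 226 to 245 with FK228, 344 to 415 with YF and 132 to 142 with both. Most of each sum was Krt19, at 667 ± 93.4 TPM in control and 108 ± 5.88 with both. Summed stellate cell markers were 2.93 to 4.00 TPM in control, 10.5 to 12 with FK228, 4.71 to 7.47 with YF and 11.9 to 14.3 with both, with the defining marker Lrat at 0 or 1 count in every library. Most of each sum was Des, at 2.97 ± 0.478, 9.86 ± 0.854, 5.39 ± 1.18 and 12.2 ± 1.04 TPM in the same order. The 5 endothelial markers together stayed at or under 0.42 TPM. Macrophage and leukocyte markers (5 of 5) were 2.82 to 3.45 TPM in control, 19.7 to 27.7 with FK228, 7.12 to 9.25 with YF and 49.4 to 59.0 with both. Nearly all of that was Cd68, at 2.75 ± 0.402 TPM in control and 52.6 ± 5.11 with both, while Adgre1 and Clec4f had at most 6 counts in any library. The part of these marker levels in the results below was not tested. In bulk RNA, fewer cells of a type and less RNA per cell cannot be told apart.

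Compared per transcript length, Dusp6 was the most abundant of the 10 genes in every group, at 26.3 ± 3.00 TPM in control. In control, Dusp10 followed at 14.4 ± 1.10, then Spred1 at 8.95 ± 0.831 and Spry1 at 7.82 ± 0.967 TPM, whose libraries overlapped. Dusp4, Spred2, Dusp1, Dusp5 and Spry2 lay between 4.18 and 3.56 TPM, each overlapping its neighbour in this order, and Spry4 was lowest at 0.110 ± 0.0200 TPM. With both treatments the order differed below Dusp6 (32.5 ± 1.18 TPM). Dusp1 (20.0 ± 0.531) and Dusp5 (19.9 ± 1.30), which overlapped each other, stood above Spry1 (11.7 ± 0.508) and Dusp10 (11 ± 1.36). Summed over the 10 genes, the level was 77.3 ± 4.55 TPM in control cells, 82.2 ± 6.94 with FK228, 94.2 ± 3.21 with YF and 117 ± 4.51 with both. The 5 phosphatases together were at 52.7 ± 3.41, 52.3 ± 2.69, 63.5 ± 1.71 and 90.0 ± 2.84 TPM in these groups. The 3 Sprouty genes together were at 11.5 ± 1.45, 17.9 ± 2.24, 16.7 ± 0.577 and 15.5 ± 0.876 TPM, and the 2 Spred genes at 13.1 ± 0.584, 12 ± 2.11, 14 ± 1.34 and 11.3 ± 0.807 TPM.

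**Figure D1:**
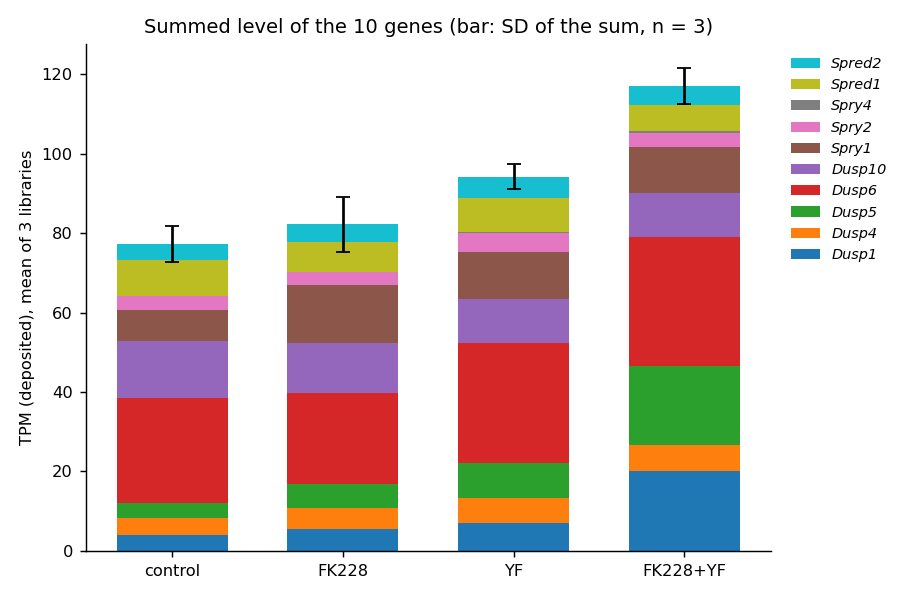
Deposited TPM of the 10 genes, stacked within each of the 4 groups (bar heights are means of 3 libraries, and the line on each bar is the SD of the sum). The FK228+YF bar is the tallest at 117 TPM against 77.3 in control, and the Dusp1 and Dusp5 segments widen most, to 20.0 and 19.9 TPM.

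The first question was what each treatment did to the 10 genes. A gene was called at an adjusted p under 0.05 in edgeR's quasi-likelihood test, with Benjamini-Hochberg adjustment over the 13346 genes. With FK228 alone, 4 of the 10 genes were called, against 68.8% of all genes tested. All 4 rose (Dusp1, Dusp4, Dusp5 and Spry1) against 33.2% of all genes. None fell, against 35.5% of all genes. At an unadjusted p under 0.05, 1 was lower (Spred1), and DESeq2 also called 0 lower. With YF alone, 6 were called against 32.6% of all genes: 5 rose (Dusp1, Dusp4, Dusp5, Spry1 and Spry4) against 18%, and Dusp10 fell, against 14.6% of all genes. With both treatments, 8 were called against 77.4% of all genes: 6 rose (those 5 and Dusp6) against 38.8%, and 2 fell (Dusp10 and Spred1) against 38.6%. The median log2 fold change of the 10 genes was 0.19 with FK228, 0.41 with YF and 0.50 with both, beside medians of -0.02, 0.01 and 0.01 over all genes tested. These 3 comparisons share the control libraries. Genes called and changed at least 2-fold numbered 1 of 10 with FK228 (18.8% of all genes), 2 with YF (6.44%) and 3 with both (28.1%).

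**Figure D2:**
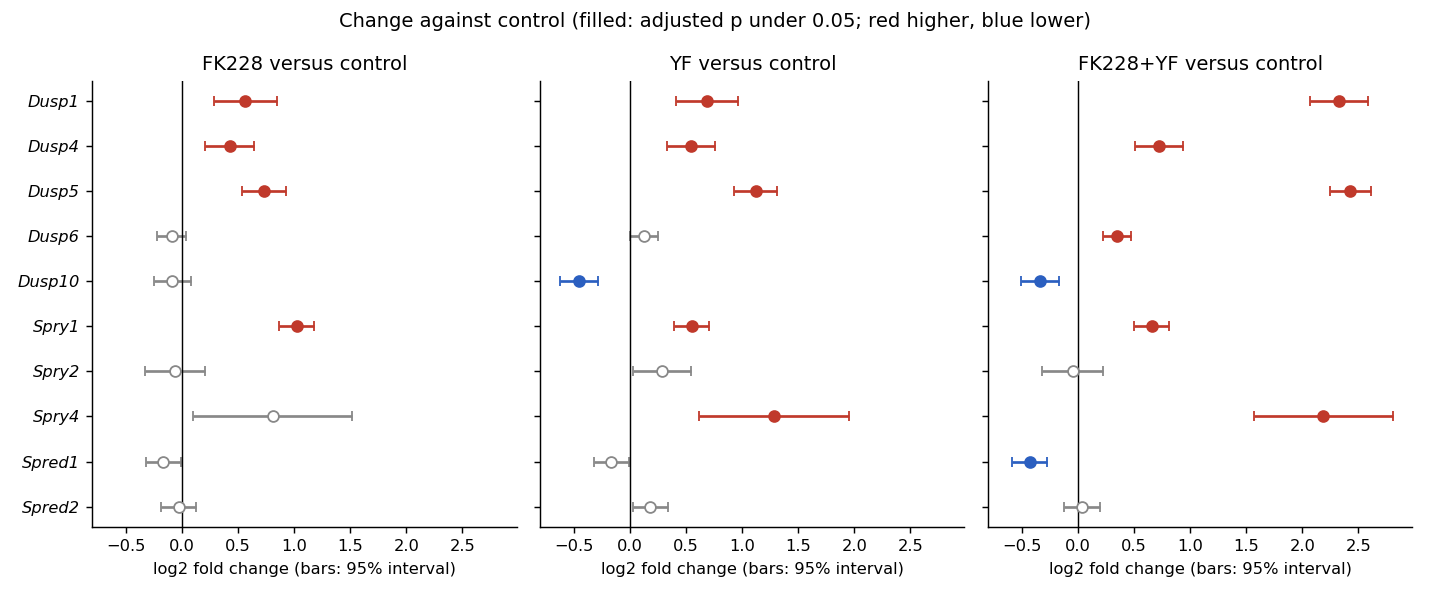
Log2 fold change of each gene against control for FK228, YF and FK228+YF (points are edgeR estimates, bars normal 95% intervals; filled red and blue points passed at an adjusted p under 0.05, open grey points did not). Dusp1 and Dusp5 lie above 2 on this axis with both treatments, and Dusp10 and Spred1 lie below 0.

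Dusp1 encodes a nuclear phosphatase that acts on p38, JNK and ERK and is induced quickly by stress and growth factors. It stood at 7.05, 4.58 and 7.08 CPM in the control libraries, 11.1, 7.89 and 8.68 in the FK228 libraries, 10.4, 9.79 and 9.94 with YF, and 31.3, 30.5 and 32.2 with both. Every treated library lay above every control library, and the 3 libraries with both treatments lay far above all others. Dusp1 rose 1.48-fold with FK228 (log2 fold change 0.56 ± 0.14 SE, edgeR adjusted p = 0.00166) and 1.61-fold with YF (0.69 ± 0.14, adjusted p = 0.00089). With both it rose 5.03-fold (2.33 ± 0.13, adjusted p = 2.14e-12). An exon of Dusp1 overlaps one of Ergic1 on the other strand in the GENCODE annotation, and the sources used here do not say whether the counting used strand, so the value carries that uncertainty. Ergic1 itself was at 107 ± 1.51 CPM in control. On the log2 scale it rose by 0.42 ± 0.06 with FK228, 0.16 ± 0.06 with YF and 0.49 ± 0.06 with both.

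Dusp5 encodes a nuclear phosphatase specific for ERK, whose gene is a target of ERK signalling through serum response factor. Its levels were 5.34, 5.05 and 5.75 CPM in the control libraries, 9.18, 8.41 and 9.13 in the FK228 libraries, 11.9, 11.6 and 11.6 in the YF libraries, and 27.5, 30.1 and 29.5 in those with both. The 4 groups did not overlap anywhere and were ordered control, FK228, YF, both. Dusp5 rose 1.66-fold with FK228 (log2 0.73 ± 0.10, edgeR adjusted p = 1.67e-06), 2.17-fold with YF (1.12 ± 0.10, adjusted p = 2.07e-08) and 5.39-fold with both (2.43 ± 0.09, adjusted p = 1.28e-15), the largest estimated rise of the 10 genes. A transcript on the other strand, AC137853.2, overlaps an exon of Dusp5, with the same uncertainty about strand.

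Dusp4, on chromosome 8 at 34807610 to 34819894, encodes another inducible nuclear phosphatase, which acts on ERK and JNK. It stood at 9.14, 7.63 and 7.62 CPM in the control libraries, 12, 9.71 and 11 in the FK228 libraries, 11.3, 12.8 and 11.3 in the YF libraries, and 12.9, 13.2 and 14.1 in those with both. The treated groups lay above control but close to each other, with the FK228 and YF libraries overlapping. It rose 1.34-fold with FK228 (log2 0.42 ± 0.11, edgeR adjusted p = 0.00188), 1.45-fold with YF (0.54 ± 0.11, adjusted p = 0.000654) and 1.65-fold with both (0.72 ± 0.11, adjusted p = 3.48e-06).

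Dusp6, on chromosome 10 at 99263231 to 99267489, encodes the cytoplasmic phosphatase specific for ERK and is widely used as a readout of ERK activity. It was at 66.3, 56.0 and 56.6 CPM in the control libraries, 57.2, 55.6 and 54.6 in the FK228 libraries, 63.7, 65.3 and 66.3 in the YF libraries, and 76.2, 72.6 and 78.8 in those with both. Only the libraries with both treatments lay above every control library, control replicate 1 being as high as the YF libraries. Dusp6 rose 1.27-fold with both (log2 0.35 ± 0.06, edgeR adjusted p = 4.55e-05). The differences were -0.10 ± 0.06 with FK228 (adjusted p = 0.197) and 0.13 ± 0.06 with YF (adjusted p = 0.14), neither past the threshold. Without control replicate 1 the YF difference was 0.21, with an adjusted p of 0.00893 (range over all alternatives 0.00893 to 0.413).

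Dusp10, on chromosome 1 at 184034381 to 184075636, encodes a phosphatase that prefers JNK and p38 to ERK, and it was the only phosphatase of the 5 that fell in any comparison with control. It was at 28.4, 32.8 and 30.8 CPM in the control libraries, 28.6, 30.7 and 27.4 in the FK228 libraries, 20.9, 21.6 and 24.4 in the YF libraries, and 23.3, 27.2 and 22.3 in those with both. The 6 YF-bearing libraries all lay below the 6 others. The log2 fold change was -0.46 ± 0.09 with YF (edgeR adjusted p = 0.000364) and -0.34 ± 0.09 with both (adjusted p = 0.00137). With FK228 it was -0.09 ± 0.09 (adjusted p = 0.375).

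**Figure D3:**
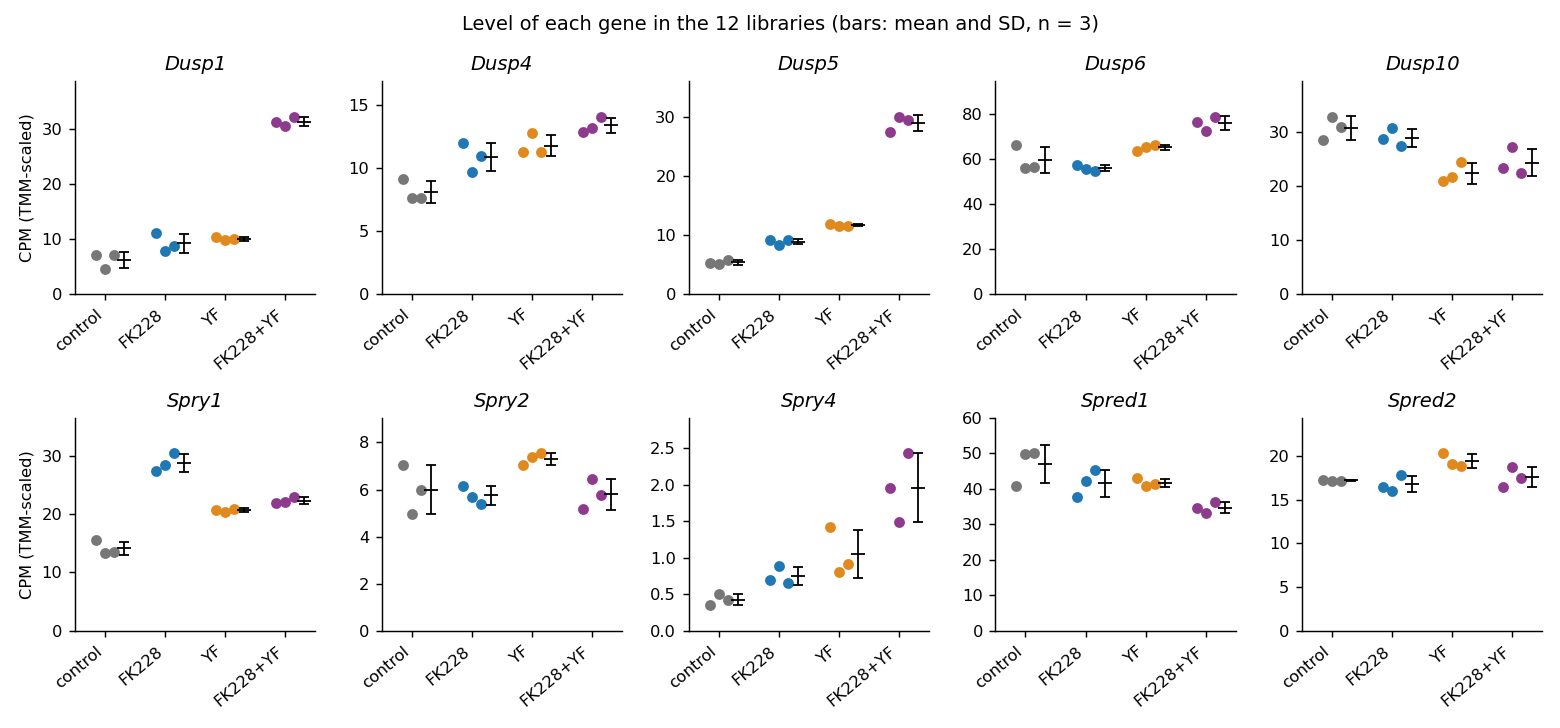
CPM of each of the 10 genes in the 12 libraries, by group (points are libraries, black bars mean and SD of 3; each panel has its own vertical axis from 0). Dusp1 and Dusp5 are highest with both treatments, near 31.3 and 29.0 CPM on average, while Spry1 is highest with FK228 alone at 28.7.

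Among the Sprouty genes, Spry1 had the largest estimated response to FK228 alone of all 10 genes. Sprouty-1 is a membrane-associated inhibitor of FGF and EGF receptor signalling upstream of RAS, and its gene is on chromosome 3 at 37639947 to 37644599. It stood at 15.5, 13.4 and 13.5 CPM in the control libraries, 27.4, 28.4 and 30.4 in the FK228 libraries, 20.7, 20.4 and 20.9 in the YF libraries, and 21.8, 22.0 and 22.9 in those with both. The FK228 libraries were above all others, and the libraries with both treatments were between them and the YF libraries. Spry1 rose 2.03-fold with FK228 (log2 1.02 ± 0.08, edgeR adjusted p = 2.93e-10), 1.46-fold with YF (0.55 ± 0.08, adjusted p = 2.29e-05) and 1.58-fold with both (0.66 ± 0.08, adjusted p = 1.82e-07). Gm42922, a transcript of unverified coding status on the other strand, overlaps an exon of Spry1, so this value too depends on how strand was handled.

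Spry4, on chromosome 18 at 38586247 to 38601347, encodes another feedback inhibitor of RAS activation and was close to the detection limit, so its folds are imprecise. Its counts were 9, 13 and 11 in control, 17, 22 and 16 with FK228, 36, 21 and 24 with YF, and 47, 37 and 58 with both, which is a mean of 0.426 ± 0.0761, 0.748 ± 0.124, 1.05 ± 0.331 and 1.96 ± 0.469 CPM. All treated libraries were above all control libraries, the FK228 and YF groups overlapped, and the libraries with both treatments were the highest. Spry4 rose 2.43-fold with YF (log2 1.28 ± 0.34, edgeR adjusted p = 0.00635) and 4.56-fold with both (2.19 ± 0.32, adjusted p = 2.18e-06). With FK228 the log2 difference was 0.81 ± 0.36 and the adjusted p 0.0533 (range over all alternatives 0.0411 to 0.157). It passed under RLE scaling (0.84), with the compared groups alone (0.84), without YF replicate 1 (0.81) and without FK228+YF replicate 2 (0.82). The call with YF rested on YF replicate 1, without which the log2 difference was 1.00 and the adjusted p 0.0517 (range over all alternatives 0.0052 to 0.0517).

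Spry2, on chromosome 14 at 105891947 to 105896819, encodes the Sprouty protein that also binds the ubiquitin ligase CBL, and it passed in no comparison with control. It was at 7.05, 4.97 and 5.99 CPM in the control libraries, 6.16, 5.70 and 5.37 in the FK228 libraries, 7.03, 7.36 and 7.54 in the YF libraries, and 5.17, 6.46 and 5.75 in those with both. The FK228 libraries and those with both treatments lay within the range of the control libraries, and the YF libraries overlapped its upper end. The 95% interval of the log2 difference from control was -0.33 to 0.21 with FK228, 0.02 to 0.55 with YF and -0.32 to 0.22 with both. The YF interval lies above 0, but the adjusted p was 0.108. Without control replicate 1 the YF difference passed, at 0.42 and an adjusted p of 0.025 (range over all alternatives 0.025 to 0.409).

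The Spred genes encode membrane proteins that bring the RAS inactivator neurofibromin to the membrane. Spred1, on chromosome 2 at 117121071 to 117182279, was at 40.7, 49.9 and 50 CPM in the control libraries, 37.6, 42.1 and 45.2 in the FK228 libraries, 42.9, 40.7 and 41.3 in the YF libraries, and 34.7, 33.2 and 36.3 in those with both. The libraries with both treatments were the lowest of the 12, while control replicate 1 lay among the FK228 and YF libraries. Spred1 fell with both (log2 -0.43 ± 0.08, edgeR adjusted p = 5.45e-05). Its differences with FK228 (-0.17 ± 0.08, adjusted p = 0.0627) and with YF (-0.17 ± 0.08, adjusted p = 0.107) did not pass. Without control replicate 1 both were -0.26, with adjusted p of 0.00326 for FK228 (range over all alternatives 0.00326 to 0.372) and 0.00791 for YF (range 0.00791 to 0.341), and without FK228 replicate 3 the FK228 difference was -0.23 (adjusted p = 0.0224). Spred2, on chromosome 11 at 19924442 to 20024026, lay between 16 and 20.3 CPM in all 12 libraries. The YF libraries, at 20.3, 19.1 and 18.8, lay above the control libraries, at 17.2, 17.1 and 17.1, but the difference did not pass (log2 0.18 ± 0.08, adjusted p = 0.0952). Its log2 difference from control had a 95% interval of -0.19 to 0.13 with FK228, 0.02 to 0.34 with YF and -0.12 to 0.20 with both.

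The next question was what each treatment added to the other. These comparisons share the FK228+YF libraries. Between FK228+YF and FK228, 8 of the 10 genes were called against 52.9% of all genes. Of these, 5 were higher against 26.6% of all genes, and 3 were lower against 26.3%. Dusp1 (log2 1.76 ± 0.13, edgeR adjusted p = 1.17e-09), Dusp5 (1.70 ± 0.09, adjusted p = 5.44e-12) and Spry4 (1.38 ± 0.29, adjusted p = 0.000464) were more than 2-fold higher, and 6.2% of all genes passed with such a change in either direction. Dusp6 was higher by 0.44 ± 0.06 (adjusted p = 7.46e-06) and Dusp4 by 0.30 ± 0.11 (adjusted p = 0.0224). Spry1 was lower (-0.37 ± 0.08, adjusted p = 0.000415), as were Spred1 (-0.26 ± 0.08, adjusted p = 0.0104) and Dusp10 (-0.25 ± 0.09, adjusted p = 0.0201). These last calls were near the threshold. That of Dusp4 was lost without FK228 replicate 2 (0.20), FK228+YF replicate 2 (0.29) or FK228+YF replicate 3 (0.26), and with no filter on low counts (0.26), with adjusted p up to 0.153. That of Dusp10 was lost without FK228 replicate 2 (-0.22), FK228+YF replicate 1 (-0.22) or FK228+YF replicate 3 (-0.19), with adjusted p up to 0.105, and that of Spred1 without FK228 replicate 3 (-0.20, adjusted p = 0.0645, the highest over its alternatives).

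Between FK228+YF and YF, 6 of the 10 genes were called against 70.6% of all genes. Of these, 4 were higher against 34.7%, and 2 were lower against 35.9%. The higher genes were Dusp1 (log2 1.64 ± 0.12, edgeR adjusted p = 3.56e-10), Dusp5 (1.31 ± 0.08, adjusted p = 1.23e-11), Spry4 (0.91 ± 0.28, adjusted p = 0.00597) and Dusp6 (0.22 ± 0.06, adjusted p = 0.00405). Spred1 was lower (-0.26 ± 0.08, adjusted p = 0.00697). Spry2 was lower as well (-0.33 ± 0.13, adjusted p = 0.0318), but that call was lost in DESeq2 (-0.30), under its size factors (-0.30) and with a stricter filter (-0.30). It was also lost without YF replicate 2 (-0.33), YF replicate 3 (-0.32), FK228+YF replicate 1 (-0.26) or FK228+YF replicate 3 (-0.33), and its adjusted p ranged from 0.0194 to 0.128 over all alternatives. Dusp1 and Dusp5 were more than 2-fold higher, and 19.5% of all genes passed with such a change in either direction. Dusp4, Dusp10, Spry1 and Spred2 did not pass.

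Whether the 2 treatments together gave more or less than the sum of their log2 effects was tested with an interaction term. The term passed for 4 of the 10 genes against 26.5% of all genes. It was positive for 3 (11.1% of all genes) and negative for 1 (15.3%), and it exceeded 2-fold for 1, Dusp1 (3.98% of all genes). The sum of the single effects of Dusp1 was 1.25 on the log2 scale, or 2.38-fold, and the measured effect of both was 2.33, or 5.03-fold (interaction 1.08 ± 0.19, edgeR adjusted p = 0.000336). For Dusp5 the sum was 1.85 (3.60-fold) and the measured effect 2.43 (5.39-fold), an interaction of 0.58 ± 0.13 (adjusted p = 0.00247). Dusp6 had a sum of 0.03 and a measured effect of 0.35 (0.32 ± 0.09, adjusted p = 0.0135). Spry1 went the other way, with a sum of 1.57 (2.97-fold) and a measured effect of 0.66 (1.58-fold), an interaction of -0.91 ± 0.11 (adjusted p = 4.73e-06). For Spry4 the sum of 2.09 and the measured 2.19 differed by 0.10 ± 0.48 (adjusted p = 0.904), an error too wide to place it among either kind. The terms of Dusp4, Dusp10, Spry2, Spred1 and Spred2 did not pass. The YF and FK228+YF groups also differed in Hdac1, at 402 ± 18.8 and 797 ± 2.15 CPM, while Hdac8 was at 42.1 ± 2.02 and 38.7 ± 0.781. The part of this Hdac1 difference in the interaction was not tested.

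**Figure D4:**
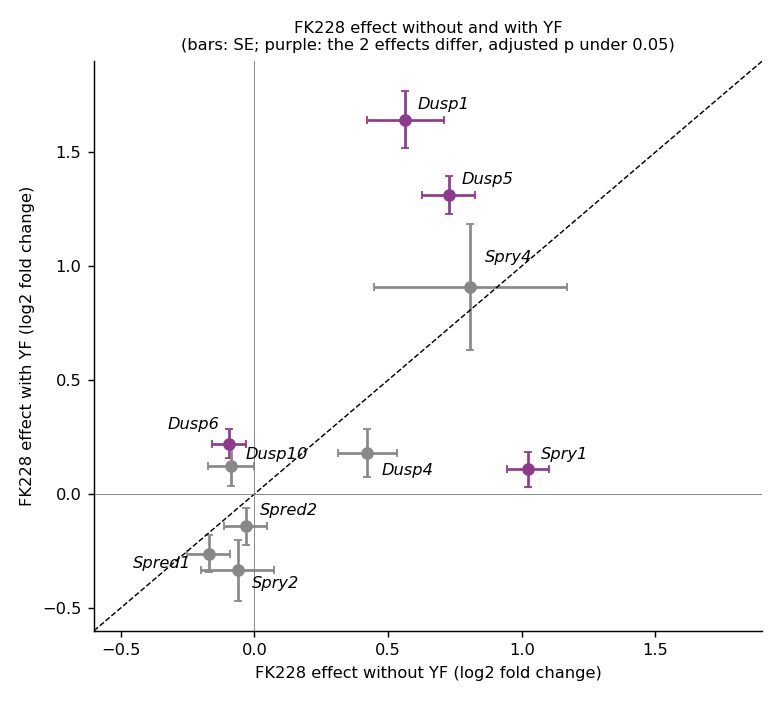
Log2 effect of FK228 in cells without YF (FK228 versus control, horizontal axis) and with YF (FK228+YF versus YF, vertical axis) for the 10 genes, with SE bars; the dashed diagonal marks equal effects, and the interaction is the vertical distance from it. Dusp1 lies above the diagonal at 0.56 and 1.64 and Spry1 below it at 1.02 and 0.11, and purple marks the 4 genes whose interaction passed.

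Across the 12 libraries, which fall into the 4 groups and share those differences, the profile of Dusp1 was most like that of Dusp5 among the 10 genes (Pearson r of log2 CPM 0.97). Spry4 was also close to Dusp5 (0.93), while Spred1 ran opposite to Dusp1 (-0.88). Of the 10449 genes with a mean of at least 5 CPM, the ones most like each member were ranked by the same r. Gtf2f1 and Rngtt were most like Dusp1 (both 0.99), and Tubb2a and Cfap52 most like Dusp5 (1.00 and 0.99), and 574 and 546 genes had an r over 0.9 with Dusp1 and Dusp5. The nearest genes were Klhl5 and Mdm2 for Dusp4 (0.96 and 0.95), Urb1 and Marchf3 for Dusp6 (0.98 and 0.97), Vgll3 and Hif1a for Spry1 (both 0.97), Fam214b and Tbc1d8 for Spry4 (both 0.97), and Fam193a and Glipr2 for Spred1 (0.95 and 0.94). For Dusp10, Spry2 and Spred2 no gene exceeded 0.9.

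The other genes of the pathway are given for comparison, starting with the 7 remaining phosphatase, Sprouty and Spred genes (Dusp2, Dusp7, Dusp8, Dusp9, Dusp16, Spry3 and Spred3), all of which were tested. For these lists the shares of all genes tested that were called higher and lower were 33.2% and 35.5% with FK228, 18% and 14.6% with YF, and 38.8% and 38.6% with both. With FK228, 3 of the 7 rose and 1 fell. With YF, 3 rose and 0 fell, also 0 at an unadjusted p under 0.05 and in DESeq2. With both, 3 rose and 1 fell, the higher count being near the share of all genes. Dusp8, a JNK and p38 phosphatase, rose from 8.46 ± 0.423 CPM in control to 16.2 ± 1.29 with both (log2 0.94 ± 0.10, edgeR adjusted p = 4.61e-08). Dusp16, which also acts on JNK, fell (-0.58 ± 0.07 with both, adjusted p = 1.09e-07). Spred3 rose by 0.60 ± 0.08 with FK228 and by 0.37 ± 0.09 with both. Spry3, named after its values were seen, was the other gene that rose in all 3, from 2, 5 and 2 counts in the control libraries to 38, 45 and 39 in those with both. The median log2 fold change of the 7 was 0.04, 0.30 and 0.37 with FK228, YF and both, beside the medians of all genes given above.

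Of the receptors and their ligands, 19 were tested. With FK228, 7 rose and 8 fell, with YF 6 rose and 8 fell, and with both 6 rose and 9 fell, the medians being 0.04, -0.07 and -0.17. Against the shares of all genes (18% higher and 14.6% lower with YF), the counts with YF were above in both directions, and those with FK228 (33.2% and 35.5%) were near them. Amphiregulin (Areg), an EGF receptor ligand, rose from 2.12 ± 0.264 CPM in control to 13.4 ± 1.24 with FK228, 6.95 ± 0.170 with YF and 30.1 ± 1.48 with both (log2 3.83 ± 0.12, edgeR adjusted p = 3.57e-17). Epiregulin (Ereg), another such ligand, rose by 1.74, 1.23 and 2.06 in the 3 treated groups. Of the FGF receptor genes, 3 were tested and fell, Fgfr2 by 2.64, Fgfr3 by 2.61 and Fgfr4 by 2.16 on the log2 scale with both.

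Of 21 tested genes of the path from RAS to ERK, 8 rose and 5 fell with FK228 (median 0.16), 2 rose and 2 fell with YF (0.06), and 11 rose and 6 fell with both (0.23). With YF these counts were below the shares of all genes (18% and 14.6%), but they are small and depend on the setting. At an unadjusted p under 0.05, 4 were higher and 3 lower with YF. DESeq2 called 2 higher and 3 lower, and limma-voom 3 higher and 2 lower. Mapk3, which encodes ERK1, fell by 0.58 on the log2 scale with both (edgeR adjusted p = 6.54e-09), while the adaptor gene Grb2 rose by 0.67 ± 0.05 (adjusted p = 1.82e-10). Of 17 JNK and p38 genes, 4 rose and 9 fell with FK228 (median -0.25), 3 rose and 1 fell with YF (-0.01), and 9 rose and 7 fell with both (0.15), beside 33.2% and 35.5%, 18% and 14.6%, and 38.8% and 38.6% of all genes. Mapkapk3, a kinase downstream of p38, rose by 1.52 ± 0.11 with both, and the p38 gamma gene Mapk12 fell by 1.46.

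A further list, labelled other feedback inhibitors, held 15 genes. It was drawn broadly, and members such as Nf1, Rasa1, Flrt3 and Ppp2r2a are regulators of the path but not feedback inhibitors. Of the 15, 5 rose and 4 fell with FK228 (median 0.05), 3 rose and 2 fell with YF (0.06), and 6 rose and 4 fell with both (0.09). The higher counts were near the shares of all genes in each comparison (33.2%, 18% and 38.8%). Errfi1, which encodes the EGF receptor inhibitor Mig-6, stood at 57.6 ± 4.40 CPM in control cells, 57.7 ± 2.17 with FK228, 80.6 ± 3.19 with YF and 110 ± 2.74 with both (log2 0.94 ± 0.06, edgeR adjusted p = 8.12e-12), with an interaction of 0.45 ± 0.09 (adjusted p = 0.000622). Il17rd, which encodes the FGF inhibitor Sef, rose by 1.64 ± 0.22 with both. Nf1, which encodes the neurofibromin that Spred proteins recruit, fell by 0.93 with both.

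The last list held 23 tested transcription factor and immediate early genes that respond to ERK or, as Elk1, Elk3, Elk4 and Srf, act in that response. Of these, 11 rose and 6 fell with FK228 (median 0.17), 10 rose and 3 fell with YF (0.23), and 9 rose and 6 fell with both (0.06). The higher count was above the share of all genes with FK228 (33.2%) and YF (18%) and near it with both (38.8%). Fos was at 1.24, 1.08 and 0.933 CPM in the control libraries, 3.83, 4.00 and 3.02 in the FK228 libraries, 52.5, 42.3 and 48.6 in the YF libraries, and 135, 123 and 132 in those with both. Its groups did not overlap, and it rose by 1.74 ± 0.18 with FK228, 5.46 ± 0.13 with YF and 6.90 ± 0.12 with both on the log2 scale (edgeR adjusted p = 3.68e-20 for both), with an interaction of -0.29 ± 0.20 that did not pass (adjusted p = 0.312). Egr1 rose by 1.48 ± 0.27 with FK228 and 2.90 ± 0.27 with both and was not called with YF (0.69 ± 0.28, adjusted p = 0.0974). Egr2, at a mean of 1.13 CPM over all libraries, rose by 1.28 ± 0.35 with FK228 and 2.96 ± 0.30 with both. Ier3, at a mean of 616 CPM, rose by 1.59 ± 0.08 and 2.12 ± 0.08. Etv5, an ETS factor gene, rose by 1.11 ± 0.22 with YF and 2.82 ± 0.20 with both, with an interaction of 1.23 ± 0.30 (adjusted p = 0.00406). Fosl1 rose by 1.15 ± 0.12 with YF, fell by 0.57 with FK228 and was not called with both (0.06 ± 0.13, adjusted p = 0.694). Of the 6 genes that fell with both, Ccnd1 changed most (-1.24 ± 0.06 on the log2 scale). Listed after their values were seen, the others were Jun (-0.85 ± 0.07), Ets1 (-0.73 ± 0.08), Ets2 (-0.71 ± 0.06), Myc (-0.52 ± 0.08) and Elk4 (-0.46 ± 0.12).

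**Figure D5:**
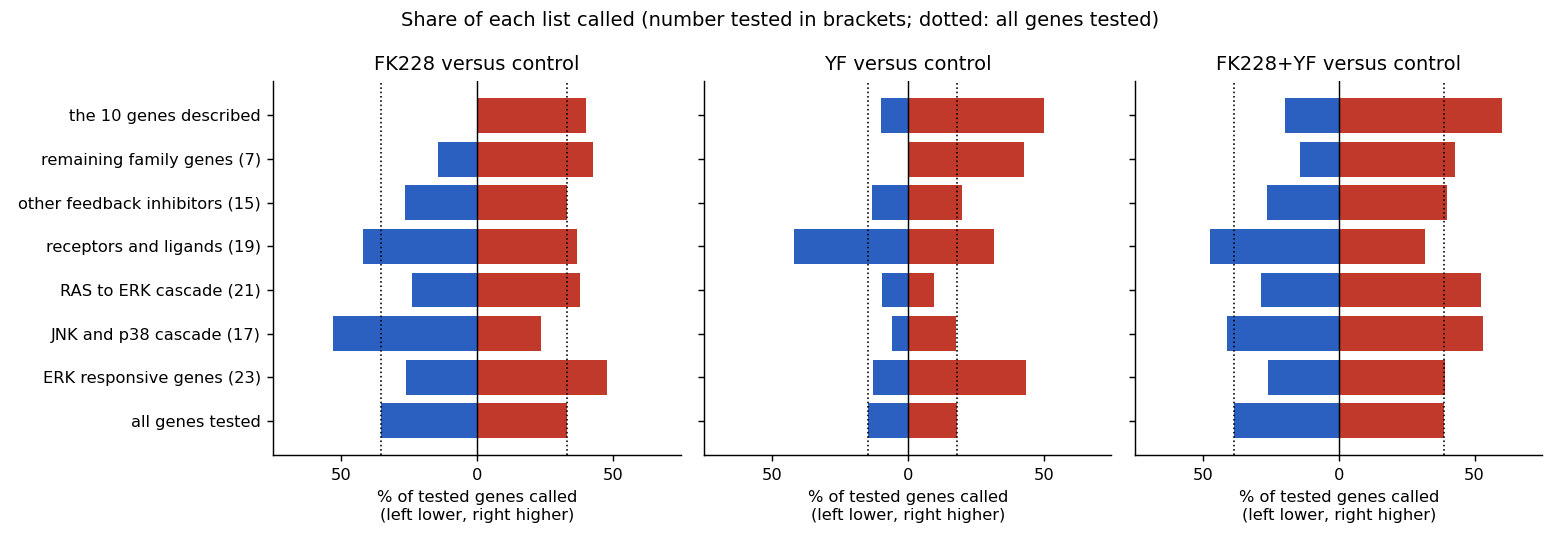
Share of the tested genes of each list called lower (blue, to the left) and higher (red, to the right) against control, in percent, with the number tested in brackets and dotted lines at the shares over all genes tested. With YF, the red bar of the 10 genes reaches 5 of 10 against 18% of all genes, and with FK228 the blue bar of the JNK and p38 list reaches 9 of 17 against 35.5%.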

How the data were processed

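Total RNA of 12 AML12 libraries in 4 groups of 3 was sequenced as paired-end reads, per the labels' protocols. The authors deposited 1 table with, per the file headers, a read count and a TPM value per gene and library. The deposited read counts are estimated counts, since 16.6% of the values are not whole, and they were rounded to whole numbers here. The deposited TPM values (scaled by the authors for transcript length and library size) were used only to compare levels between genes. The submitters' processing notes name the build GRCm38.p6 and the tools RSEM 1.2.12, Bowtie2 2.2.5, DESeq2 1.4.5 and HISAT2 2.0.4. Their roles, the annotation and the use of strand are not stated there. The 40 other value columns of the table were not used.

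Genes were filtered with filterByExpr, scaled by TMM and tested in edgeR 4.0.16 (R 4.3.3) with the robust quasi-likelihood F test, 1 term per group over all 12 libraries. This gave 6 comparisons, the interaction included. The test was checked on simulated data. CPM values are scaled by TMM. Alternatives were RLE scaling (DESeq2's size factors), limma-voom (limma 3.58.1), DESeq2 1.42.0, a replicate block, no filter or one of 5 CPM in 3 libraries, the compared groups alone, and leaving out each library. Single libraries were not tested as outliers. Library totals were 23664436 to 26122987 counts, and counting error is largest for genes with few counts, such as Spry4 and Spry3.

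The 10 genes and the pathway lists were chosen with earlier results of these data known. All 10 genes are named. From each pathway list, names came from up to 4 called genes with the largest absolute log2 fold change in a comparison and a mean of at least 1 CPM, and the genes most like each member from a mean of at least 5 CPM. Promoter windows came from RefSeq and exon overlaps from GENCODE M21, both on GRCm38.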

Additional observations from a re-analysis of the deposited data

Results flagged for a closer look

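For 4 of the 10 genes the effect of FK228 differed between cells without and with YF by the interaction term (edgeR, adjusted over all 13346 genes, of which 26.5% passed). The difference, as FK228+YF minus YF, less FK228 minus control on the log2 scale, was 1.08 for Dusp1, 0.58 for Dusp5, 0.32 for Dusp6 and -0.91 for Spry1. Dusp1 is at 31.3 ± 0.865 CPM with both treatments against 9.22 ± 1.67 and 10 ± 0.311 with either alone (mean ± SD, n = 3). Spry1 is at 22.3 ± 0.587 CPM with both against 28.7 ± 1.53 with FK228 alone. Hdac1 is at 402 ± 18.8 CPM with YF and 797 ± 2.15 with both, and its part in these differences was not tested.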

How the results depend on the processing

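Over 19 alternatives, 12 of which left out 1 library each, 31 of 36 called gene results stayed called in every one, and none of the 36 changed sign. The exceptions are given with their values in the report. The number of the 10 genes lower between FK228+YF and YF was 2, and 1 under RLE scaling, the 5 CPM filter and DESeq2. Of all genes, 4554 of 13346, 4104 of 10771 and 4494 of 13346 were lower in these settings, against 4791 of 13346. With 1 library left out, the number of the 10 ranged from 1 to 2. That for FK228 versus control ranged from 0 to 1 and that for YF versus control from 1 to 2. Without control replicate 1, where both were at their highest, 4665 and 2132 of all 13572 genes were lower. The number higher for YF versus control ranged from 4 (without YF replicate 1) to 7 (without control replicate 1). Of all genes, 2076 of 13569 and 2616 of 13572 were higher in these settings, against 2405 of 13346. The number lower between FK228+YF and FK228 ranged from 2 to 3. Without FK228 replicate 2, where it was 2, 3305 of all 13558 genes were lower, against 3514 of 13346. Uncalled differences near 0 changed sign: Spry2 between FK228+YF and FK228 was -0.020 without a filter, and Spred2 between FK228 and control was 0.0011 with the 5 CPM filter and 0.0024 with the compared groups alone. With 1 library left out, Spry2 ranged from -0.18 to 0.067 for FK228 versus control, from -0.17 to 0.077 for FK228+YF versus control and from -0.090 to 0.087 for FK228+YF versus FK228. Spred2 ranged likewise from -0.079 to 0.013 for FK228 and from -0.010 to 0.078 for FK228+YF versus control, and the Spry4 interaction from -0.086 to 0.38. The cause of these shifts was not tested. Spry4 has no value under the 5 CPM filter, and the interaction none for the compared groups alone. No pairing of the libraries by replicate number was seen. Over 18 pairs of same-numbered libraries the correlation of deviations from the group mean ran from -0.43 to 0.23 and was over 0.1 in 2. Of 12 libraries, 2 correlated best with their own number. Each group mean rests on 3 libraries, so this check cannot exclude a pairing. With the replicate block, 9015 genes were called for FK228 versus control against 9181. Of the 10 genes, 4 were higher, as without it, beside 4356 of all 13346 genes, against 4437 without it. Under RLE scaling and in DESeq2, 3 JNK and p38 genes were lower with YF in place of 1. With FK228, 10 RAS to ERK genes were higher under both in place of 8, and 6 JNK and p38 genes in place of 4. Other list counts against control moved less under these settings. Low counts limit Spry4 and Spry3.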
